A study of Mus musculus with 10 samples.

Results

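The genes described here are 40 mouse genes of mitosis and the mitotic spindle, measured in mouse erythroleukemia (MEL) cells, a line of transformed erythroid precursors. Each gene was followed through 1 probe set of the array, the one with the highest mean intensity over the 10 arrays among probe sets that the platform annotation pairs with that single symbol. Such a probe set existed for 39 of the 40 genes, out of 18193 genes with a symbol of their own. Ccnb1 was not analysed here. All 39 passed the filter on dim probe sets, as did 12502 of the 18193 genes, and each exceeded the median of the whole table (30.52) on every array.

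The series set 4 subclones carrying BCL11A, a zinc finger repressor of globin genes, with a FLAG-Biotag tag against the line they came from. Each subclone (FBB1.5, FBB1.7, FBB1.10 or FBB1.11) contributed 2 arrays, 8 in all, and the parental Mel-BirA line contributed 2. All 5 lines carry the biotin ligase BirA, so the parental line is a control for the tagged protein and not for BirA. Each subclone is 1 clone, no untagged subclone is among the samples used here, and an effect of the tagged protein and an effect of deriving clones cannot be told apart. The labels give neither the age of the cultures nor a treatment. The labels do not say whether a line's 2 arrays are separate cultures; the p-values therefore reflect the spread between these arrays alone, which may be technical. In bulk RNA of this kind, fewer cells in mitosis and less mitotic RNA per cell cannot be told apart.

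As cells enter mitosis, Cdk1 bound to cyclins is switched on by Cdc25 phosphatases, and kinases such as Plk1, Aurora A and Aurora B drive spindle assembly and chromosome attachment. The spindle checkpoint holds back the anaphase-promoting complex and its activator Cdc20 until kinetochores are attached; securin and cyclins are then destroyed, separase cuts cohesin, and the central spindle directs cytokinesis. Transcripts of these genes are low in early G1 and reach their peak in G2 and M, through MuvB complexes that bind the cell cycle genes homology region (CHR) of their promoters and NF-Y that binds CCAAT boxes nearby. In dividing erythroid precursors these genes are active, and they are shut down as the cells mature and lose their nuclei.

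Promoters of 33 of the 39 members were in the RefSeq table of assembly GRCm38.p6, as 35 stretches of 300 bases (250 before the annotated start and 50 from it on). They were searched on both strands for TTTGAA and TTCGAA, forms of the CHR core, and for CCAAT; each was counted whether or not it overlapped with another. TTTGAA occurred in 27 of the 35 member promoters (77.1%), against 17.9% of all 32851 promoters. Within 50 bases of the start it occurred in 25 (71.4%), against 4.94% of all promoters. TTCGAA occurred in 4 (11.4%, against 1.56%), in Bub1, Bub1b, Cdc25b and Top2a. CCAAT occurred in 28 (80%), against 37.4%. A CHR form together with CCAAT occurred in 26 (74.3%), against 7.52%. In all 26 of these at least 1 CCAAT match lay upstream of at least 1 CHR match, which promoters with several matches meet easily. That order was not counted over all promoters. No match to any of the letters lay in the windows of Birc5, Mad2l1, Nuf2 and Pttg1. A match is a description of the letters and not a measured binding site.

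**Figure D1:**
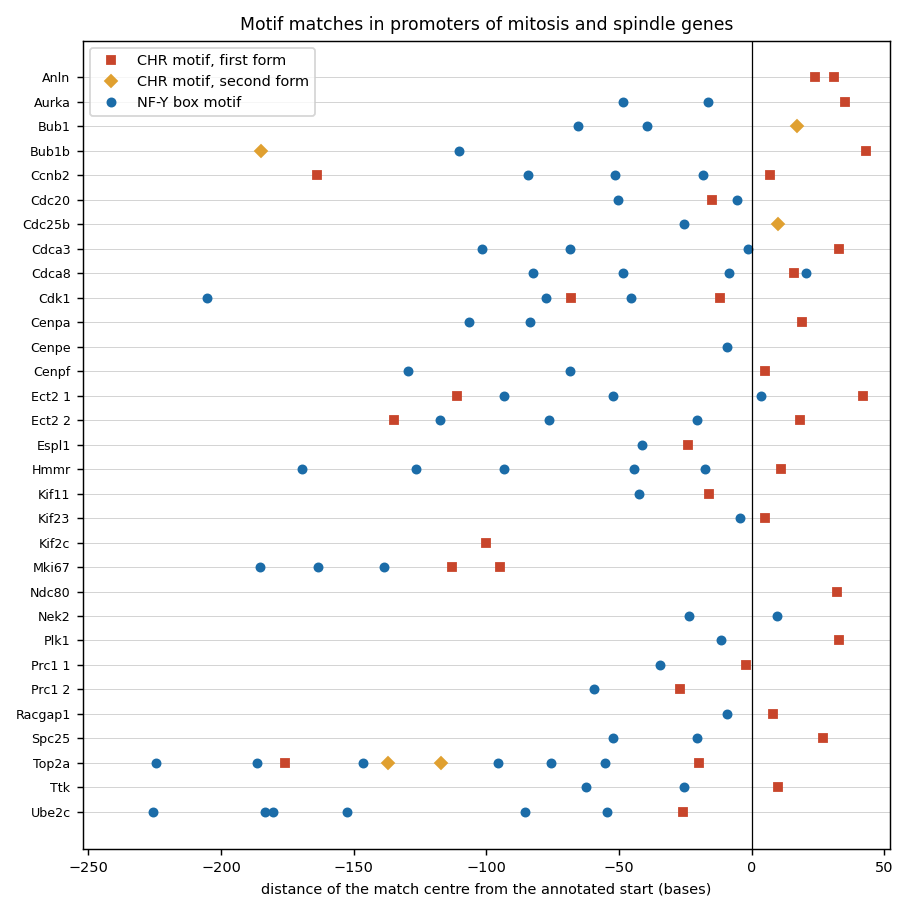
Matches to the CHR forms (squares for the first form, diamonds for the second) and to the NF-Y box (circles) in the promoters of members with at least 1 match, by distance of the match centre from the annotated start in bases. CHR matches gather within 50 bases of the start, where 27 of 35 member promoters hold a match (77.1%, against 5.31% of all promoters). NF-Y box matches lie mostly upstream of them.

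The promoters below belong to the 4 members with the highest tagged-against-parental difference and to 2 of the 4 with the lowest. Capitals mark the CHR form TTTGAA or TTCGAA and the box CCAAT, which reads ATTGG where it lies on the other strand; each promoter is printed 5′ to 3′ on the gene's own strand. Racgap1 is at chr15:99651607-99651906, minus strand. Plk1 is at chr7:122159185-122159484, plus strand. Cdc20 is at chr4:118437294-118437593, minus strand. Bub1 is at chr2:127831810-127832109, minus strand. Cdc25b is at chr2:131186698-131186997, plus strand. Cenpf is at chr1:189688037-189688336, minus strand. All 6 shown hold a CHR form and a CCAAT box, and Bub1 and Cdc25b hold the TTCGAA form near the start. Of the 2 other members among the 4 lowest, Cenpe had a CCAAT match and no CHR form, and Pttg1 had neither. Racgap1, Cdc20 and Cdc25b passed in the mean over subclones with lines fixed, while Plk1, Bub1 and Cenpf did not (adjusted p = 0.0586, 0.137 and 0.216, limma).
Racgap1: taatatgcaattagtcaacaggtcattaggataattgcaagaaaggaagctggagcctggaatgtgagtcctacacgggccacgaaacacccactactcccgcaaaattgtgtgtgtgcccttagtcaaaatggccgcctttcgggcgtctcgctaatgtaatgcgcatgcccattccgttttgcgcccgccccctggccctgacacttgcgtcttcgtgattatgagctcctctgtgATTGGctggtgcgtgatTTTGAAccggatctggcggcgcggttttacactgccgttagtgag
Plk1: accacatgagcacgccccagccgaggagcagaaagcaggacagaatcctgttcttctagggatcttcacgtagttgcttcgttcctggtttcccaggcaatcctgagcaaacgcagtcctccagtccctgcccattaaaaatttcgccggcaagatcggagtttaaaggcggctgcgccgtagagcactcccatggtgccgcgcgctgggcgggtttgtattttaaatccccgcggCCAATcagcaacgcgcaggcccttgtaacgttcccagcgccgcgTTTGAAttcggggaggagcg
Cdc20: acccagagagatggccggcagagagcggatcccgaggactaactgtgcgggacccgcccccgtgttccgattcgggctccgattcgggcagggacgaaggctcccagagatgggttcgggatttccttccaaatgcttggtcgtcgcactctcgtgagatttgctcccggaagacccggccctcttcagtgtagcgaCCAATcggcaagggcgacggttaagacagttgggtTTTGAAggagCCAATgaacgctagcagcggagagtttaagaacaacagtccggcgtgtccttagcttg
Bub1: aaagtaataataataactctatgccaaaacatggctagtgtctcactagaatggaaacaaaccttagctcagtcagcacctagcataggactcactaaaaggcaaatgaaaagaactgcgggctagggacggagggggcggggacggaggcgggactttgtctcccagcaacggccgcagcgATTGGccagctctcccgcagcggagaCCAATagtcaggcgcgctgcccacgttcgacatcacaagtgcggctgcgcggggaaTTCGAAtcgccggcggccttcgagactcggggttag
Cdc25b: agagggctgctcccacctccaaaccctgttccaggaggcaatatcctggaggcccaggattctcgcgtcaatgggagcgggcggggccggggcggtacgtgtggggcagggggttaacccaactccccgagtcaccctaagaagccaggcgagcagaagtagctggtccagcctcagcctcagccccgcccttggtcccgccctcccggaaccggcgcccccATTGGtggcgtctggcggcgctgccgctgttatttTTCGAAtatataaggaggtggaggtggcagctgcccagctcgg
Cenpf: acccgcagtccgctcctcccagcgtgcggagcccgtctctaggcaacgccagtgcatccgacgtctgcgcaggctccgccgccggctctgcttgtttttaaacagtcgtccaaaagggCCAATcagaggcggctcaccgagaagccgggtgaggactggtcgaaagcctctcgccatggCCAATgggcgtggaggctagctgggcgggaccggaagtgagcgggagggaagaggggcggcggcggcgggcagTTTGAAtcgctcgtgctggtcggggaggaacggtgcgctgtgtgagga

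Values below are the authors' probe set intensities on a linear scale. Differences are of log2(intensity + 16), subclone minus parental, so folds of dim genes are understated. Array medians lay between 29.58 and 31.59, and arrays of a line correlated at 0.981 to 0.9887 over all probe sets, against 0.9677 to 0.9868 between lines. Of the erythroid defining genes, 9 of the 10 with a probe set exceeded the table median on every array. Among them were Gata1, Klf1, Epor, Nfe2 and Tal1, and also Hbb-b2, which lay near that median at 30.79 to 50.43. The 9 also include Spi1, the virus-activated gene of erythroleukemia, which was listed for that reason and is no marker of erythroid identity. Hba-a1 was at or below the median on every array (3.43 to 15.74). The summed intensity of the 10 genes ran from 5228 to 5909 in the subclones and from 5311 to 5624 in the parental line. Of the 9, all tested, 0 passed in the mean over subclones, while in FBB1.7 Tal1 was lower (-0.39, adjusted p = 0.0451) and the probe set of Hba-a2, whose sequence is close to that of its neighbour copy, was higher (0.83, adjusted p = 0.0392), and Alas2 differed between subclones (adjusted p = 0.0275). The Bcl11a probe set that differed most between lines had 62.1 and 95.8 on the FBB1.5 arrays, 62.4 and 65.0 on those of FBB1.7, 233 and 165 on those of FBB1.10 and 245 and 181 on those of FBB1.11, against 39.7 and 35.9 in the parental line, so it lay above both parental arrays on every subclone array and was brightest in FBB1.10 and FBB1.11. Against parental it passed in every subclone (FBB1.5 at adjusted p = 0.0408, FBB1.10 at 0.000169 and FBB1.11 at 7.11e-05, limma) except FBB1.7 (0.0711). None of the other tested Bcl11a probe sets was called higher, and another one was called lower in FBB1.7, with 229 and 236 there against 309.5 and 350.0 in the parental line (-0.47, adjusted p = 0.0148), and differed between subclones (adjusted p = 0.00606). Of the 7 mast cell genes tested, 5 were lower in the mean over the subclones with lines fixed (1.56% of all tested probe sets were) and 0 with the line as block. FBB1.5 had 1 of them called lower, FBB1.7 and FBB1.10 had 4 each, FBB1.11 had 3, and Mcpt2, Cma1 and Gzmb differed between subclones. The mast cell genes had a summed intensity of 1046 to 6614 in the subclones and 5715 to 6873 in the parental line, and Fcer1a, Mcpt8, Tpsab1 and Ms4a2 were at or below the table median on every array. Of the 12 granulocyte and macrophage genes, 5 exceeded the table median on every array, among them Csf1r and Adgre1. So did 4 of the 8 stromal genes, among them Thy1, and 4 of the 11 mast cell genes. Granulocyte and macrophage genes summed to 675 to 789 in the subclones and 713 to 806 in the parental line. Stromal genes summed to 652 to 1303 in the subclones and 958 to 1015 in the parental line. Among these Pdgfrb was lower in the mean over subclones (-0.51, adjusted p = 0.0258) and in FBB1.7 (-1.05), and Thy1 was lower in FBB1.5 (-0.95) and higher in FBB1.7 (0.52). Prtn3, a granulocyte gene, was lower in FBB1.7 (-0.78, adjusted p = 0.0393), and Pdgfrb, Thy1 and Prtn3 differed between subclones. The part of these genes in the results for mitotic genes was not tested.

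The parental arrays did not sit together for the mitotic genes. Parental array 2 was higher than parental array 1 for 31 of 39 members (79.5%), against 51.1% of all tested probe sets. Parental array 1 was the lowest of the 10 arrays for 15 members, a count for which no share over all tested probe sets was taken. The mean deviation of the 39 members from their own means, in log2 units, was -0.13 in parental array 1 and 0.02 in parental array 2. On the same scale it was -0.03 and -0.08 for the FBB1.5 arrays, 0.07 and 0.09 for those of FBB1.7, 0.08 and 0.06 for those of FBB1.10, and -0.06 and -0.02 for those of FBB1.11. Parental array 2 also had the highest ratio of 3′ to 5′ actin probe signal, 1.80, followed by FBB1.5 array 1 at 1.47, with 1.06 to 1.22 on the other 8 arrays. FBB1.7 and FBB1.10 were thus the only lines with both arrays above the mean of the members.

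**Figure D2:**
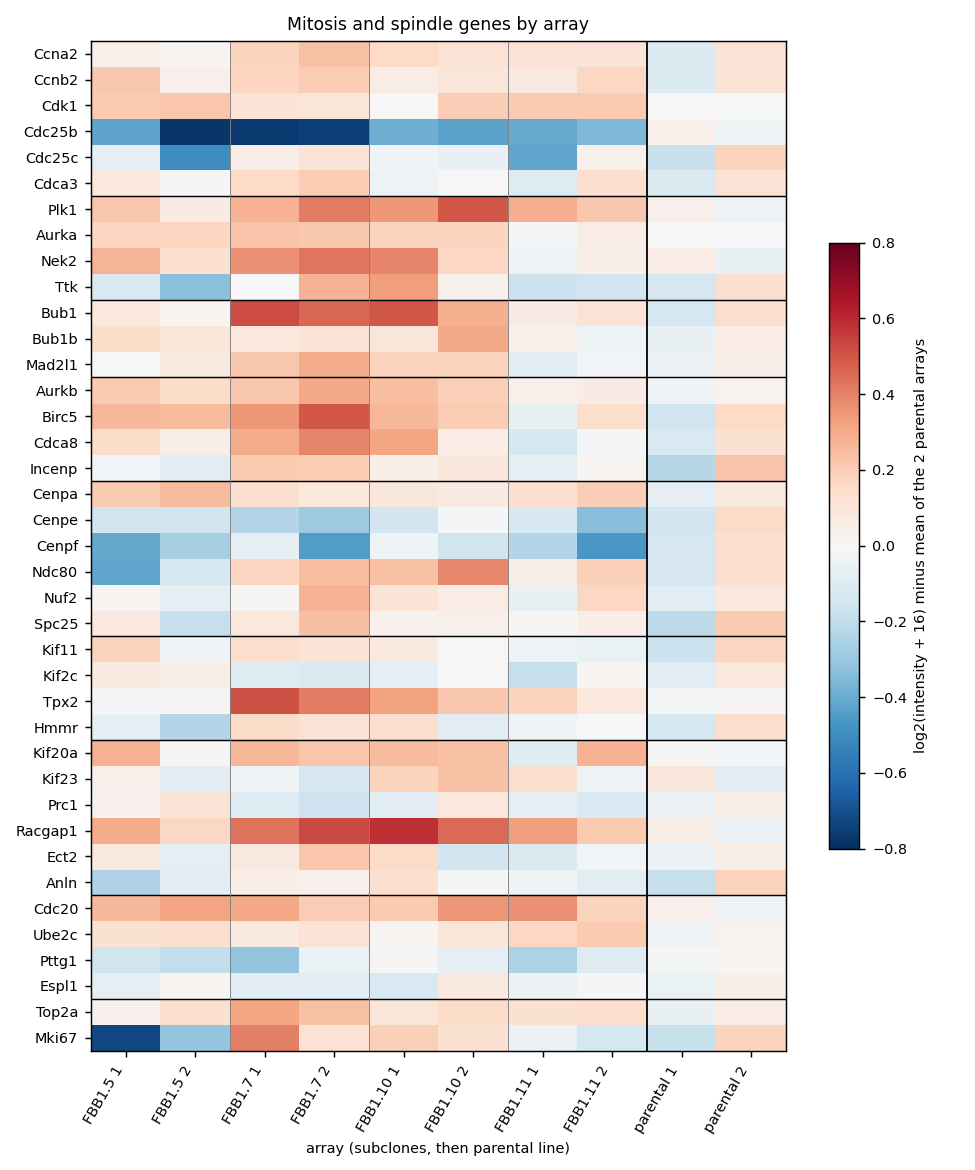
Difference of each of the 39 members on each of the 10 arrays from its mean over the parental arrays, in log2 units. Members are in rows ordered by role and arrays in columns, subclones left of parental. The parental columns mirror each other because their mean was subtracted. The mean difference from parental is above 0 for 31 of 39 members in FBB1.7 and in FBB1.10. Parental array 1 holds the lowest value of 15 members, a count for which no share over all tested probe sets was taken.

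Levels of the members varied little between lines. The ratio of the highest to the lowest line mean was 1.06 to 1.72 over the 39 members, with a median of 1.197. The median was 1.26 over all tested probe sets, which needed to exceed the table median on only 2 arrays. No set of like intensity was compared. FBB1.7 had the highest line mean for 20 members (51.3%; 22% of all tested probe sets), FBB1.10 for 8 (18.4% of all), FBB1.5 for 5 (23.8%), FBB1.11 for 1 (15.3%) and the parental line for 5 (20.5%). The parental line had the lowest mean for 17 members (43.6%; 25.5%), FBB1.5 for 9 (18.9% of all), FBB1.7 for 7 (26.9%), FBB1.11 for 5 (15.2%) and FBB1.10 for 1 (13.5%). All 4 subclones were above parental for those 17, among them Ccna2, Cdk1, Plk1, Aurka, Aurkb, Bub1, Birc5, Tpx2, Cdc20 and Top2a. All 4 were below it for 5 (12.8%; 20.5%): Cdc25b, Cenpe, Cenpf, Pttg1 and Espl1. These counts turned on the parental array used: set against parental array 1 alone, all 4 subclone means were above for 23 members and below for 2 (25.4% and 22.5% of all tested probe sets), and against parental array 2 alone, above for 11 and below for 12 (29.6% and 26.8% of all tested probe sets).

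The first question was whether the tagged cells as a group differed from their parental line. With the line as a random block, so that the spread between clones counts as error, limma called 0 of 39 members and 0% of the 25061 tested probe sets at an adjusted p of 0.05. At an unadjusted p of 0.05, 4 members passed (10.3%, against 8.74% of all tested probe sets): Cdc25b, Plk1, Racgap1 and Cdc20. With the 4 clones taken as fixed, so that only the spread between arrays of a line counts as error and nothing is said of further clones, 3 members passed (7.69%, against 3.54%). Racgap1 and Cdc20 were higher (5.13% of members, against 1.98%), and Cdc25b was lower (2.56%, against 1.56%). The median difference of the members was 0.09, against 0.01 for all tested probe sets, and 27 of 39 were above 0 (69.2%, against 52.6%). The median was 0.01 without parental array 1 and 0.16 without parental array 2. Against parental array 1 alone 34 members were above 0 (87.2%, against 50.7% of all tested probe sets), and against parental array 2 alone 20 were (51.3%, against 50.7%). All 8 subclone arrays exceeded both parental arrays for Plk1, Aurkb, Racgap1 and Cdc20 (10.3% of members, against 5.22%), and lay below both for Cdc25b (2.56%, against 4.24%).

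**Figure D3:**
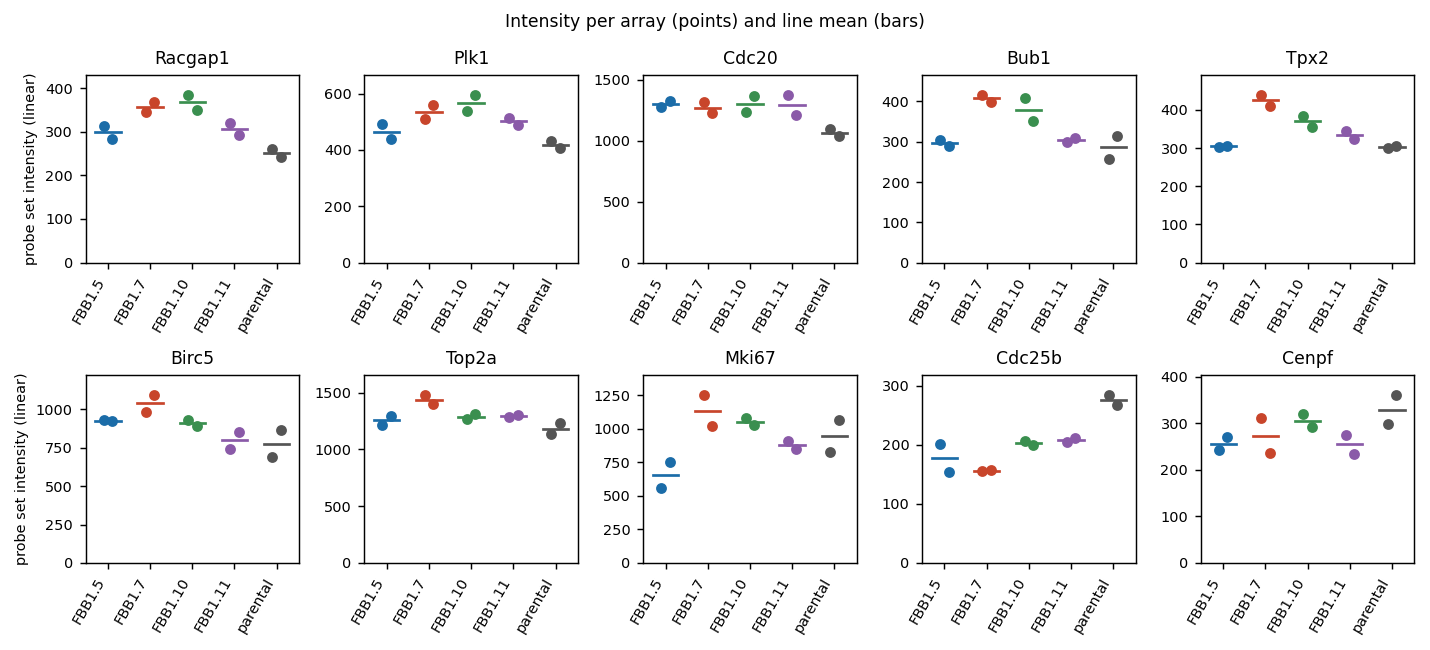
Linear probe set intensity of 10 members on each array (points) with the mean of each line (bars), subclones left of parental, each panel from 0. Racgap1, Plk1 and Cdc20 lie above both parental arrays on all 8 subclone arrays and Cdc25b below both, Bub1 and Tpx2 are highest in FBB1.7 and FBB1.10, and Mki67 is lowest in FBB1.5.

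Among the cyclins, Cdk1 and their activators, only Cdc25b was called on its brightest probe set. This phosphatase starts the activation of Cdk1 at the centrosomes in G2. Its intensity was 202 and 154 on the FBB1.5 arrays, 155 and 158 on those of FBB1.7, 206 and 200.4 on those of FBB1.10 and 204 and 211 on those of FBB1.11, against 284 and 267 in the parental line. Every subclone array was below both parental arrays, and FBB1.7 was lowest with its 2 arrays close together. The mean over subclones was lower by a log2 difference of -0.54 ± 0.10 (SE, 8 arrays against 2, adjusted p = 0.00824, limma), and this call held with each array left out in turn, but was lost without both FBB1.7 arrays, with the actin ratio as a covariate and without the intensity trend (adjusted p up to 0.117). In FBB1.5 it was lower too, at -0.60 ± 0.12 (adjusted p = 0.021). FBB1.7 showed the largest difference of the 4 subclones, -0.76 ± 0.12 (adjusted p = 0.00147). The FBB1.5 call was lost without parental array 1 or FBB1.5 array 2 (adjusted p 0.0574 to 0.192), and the FBB1.7 call was kept with each array left out. Cdc25b has 1 tested probe set. Its difference in FBB1.10 was -0.41 (adjusted p = 0.114) and in FBB1.11 -0.38 (adjusted p = 0.241). Cdk1, the kinase it activates, had 1576 and 1589 on the FBB1.5 arrays, 1472 and 1458 on those of FBB1.7, 1357 and 1560.3 on those of FBB1.10 and 1577 and 1573 on those of FBB1.11, against 1363 and 1359 in the parental line; the FBB1.10 arrays and the parental arrays overlapped, and the difference was 0.16 (adjusted p = 0.164). Ccna2 and Ccnb2, the A- and B-type cyclins of G2 and M, differed by 0.12 and 0.13 (adjusted p = 0.394 and 0.426, limma). A dimmer Ccna2 probe set, 1417911_at, was at 0.33 in the mean (adjusted p = 0.0536) and passed in FBB1.7 (0.51, adjusted p = 0.00971). Cdca3, a trigger of Wee1 destruction, differed by 0.05, and Cdc25c, another Cdk1 phosphatase, by -0.11 (adjusted p = 0.807 and 0.743).

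Of the mitotic kinases, Plk1, which acts from mitotic entry to cytokinesis, had 491 and 438 on the FBB1.5 arrays, 510.3 and 559.5 on those of FBB1.7, 536 and 596 on those of FBB1.10 and 515 and 487 on those of FBB1.11, against 431 and 406 in the parental line. All 8 subclone arrays exceeded both parental arrays, and FBB1.10 was highest. The mean over subclones differed by 0.29 ± 0.08 (adjusted p = 0.0586), short of the threshold. Plk1 was higher in FBB1.7 by 0.34 ± 0.10 (adjusted p = 0.0434) and passed in FBB1.10 at 0.42 ± 0.10 (adjusted p = 0.0462). The first call was lost without either parental array, either FBB1.7 array or either FBB1.11 array (adjusted p 0.0552 to 0.253). The second was lost without parental array 2 or any one array of FBB1.7, FBB1.10 or FBB1.11 (0.0717 to 0.277), and both were lost without the 2 arrays of high actin ratio (0.127 and 0.134). Ttk, the kinase that recruits checkpoint proteins to kinetochores, had 87.2 and 72.8 on the FBB1.5 arrays, 95.9 and 120.3 on those of FBB1.7, 126 and 99.0 on those of FBB1.10 and 83.7 and 85.1 on those of FBB1.11, against 86.0 and 107 in the parental line; the subclones lay on both sides of the parental arrays. Its F test between subclones gave an adjusted p of 0.197. Aurka, the spindle pole kinase, and Nek2, a centrosome kinase, differed by 0.15 and 0.22 in the mean over subclones (adjusted p = 0.248 and 0.228). In FBB1.7 Nek2 differed by 0.40 (adjusted p = 0.0501). Nek2 probe set 1417299_at, nearly as bright, was at -0.0009 in the mean and 0.19 in FBB1.7 (adjusted p = 0.998 and 0.322, limma). The much dimmer 1437579_at was at -0.11 and -0.52 (adjusted p = 0.857 and 0.333).

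In the spindle checkpoint, Bub1, the kinase that gathers checkpoint proteins at kinetochores, had 304 and 289 on the FBB1.5 arrays, 417 and 399 on those of FBB1.7, 409 and 351 on those of FBB1.10 and 299 and 310.2 on those of FBB1.11, against 257 and 315 in the parental line. Both arrays of FBB1.7 and of FBB1.10 exceeded both parental arrays, while FBB1.5 and FBB1.11 lay between the 2 parental arrays. Bub1 passed in FBB1.7 (0.49 ± 0.12, adjusted p = 0.0142), and this call was lost without parental array 1 or either FBB1.7 array (adjusted p 0.0673 to 0.115). In FBB1.10 the difference was 0.39 (adjusted p = 0.108). The checkpoint proteins Bub1b (BubR1) and Mad2l1 (Mad2) differed by 0.11 and 0.10 in the mean over subclones, with adjusted p of 0.519 and 0.505, and all 3 checkpoint members were above 0 in that comparison.

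The chromosomal passenger complex, which corrects wrong attachments and sets up cytokinesis, is Aurora B with survivin (Birc5), borealin (Cdca8) and Incenp. Birc5 had 931 and 923 on the FBB1.5 arrays, 985 and 1094 on those of FBB1.7, 934 and 892 on those of FBB1.10 and 742 and 855 on those of FBB1.11, against 688 and 866 in the parental line. Both FBB1.7 arrays exceeded all other arrays, and both FBB1.11 arrays lay between the parental arrays. Birc5 passed in FBB1.7 (0.42 ± 0.11, adjusted p = 0.0222); the call was lost without parental array 1 or either FBB1.7 array, with values of 0.26 to 0.49 (adjusted p 0.0620 to 0.176). Cdca8 had 762 and 714 on the FBB1.5 arrays, 847 and 907 on those of FBB1.7, 858 and 716 on those of FBB1.10 and 622 and 679 on those of FBB1.11, against 631 and 748 in the parental line, with FBB1.7 and FBB1.10 array 1 above the rest, and FBB1.11 and 1 array each of FBB1.5 and FBB1.10 at or below the higher parental array. Its difference in FBB1.7 was 0.34 (adjusted p = 0.0544), and its F test between subclones gave an adjusted p of 0.0951. Aurkb had 182 and 174 on the FBB1.5 arrays, 184 and 196 on those of FBB1.7, 187 and 181 on those of FBB1.10 and 160.4 and 164 on those of FBB1.11, against 153 and 159 in the parental line; every subclone array was above both parental arrays, by 0.18 in the mean over subclones (adjusted p = 0.289). Incenp differed by 0.05 (adjusted p = 0.847). In FBB1.7 the 4 members lay between 0.21 and 0.42, and in FBB1.11 between -0.08 and 0.05.

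At centromeres and kinetochores no member passed in any comparison with the parental line. Cenpf, a large coiled-coil protein of the outer kinetochore, had 243 and 271 on the FBB1.5 arrays, 311 and 237 on those of FBB1.7, 320.1 and 292 on those of FBB1.10 and 276 and 234 on those of FBB1.11, against 298 and 361 in the parental line. Parental array 2 was the highest of all, but parental array 1 overlapped with FBB1.7 and FBB1.10. The difference was -0.26 ± 0.11 (adjusted p = 0.216), and 1 of its 3 tested probe sets lay above 0. Cenpe, the kinetochore motor that carries chromosomes to the spindle equator, had 149 and 150.0 on the FBB1.5 arrays, 140.2 and 134 on those of FBB1.7, 149.6 and 166 on those of FBB1.10 and 152 and 129 on those of FBB1.11, against 149 and 188 in the parental line. Its parental array 1 fell within the range of the subclones, and the difference was -0.18 ± 0.10 (adjusted p = 0.371). Ndc80, which binds spindle microtubules, had 51.8 and 65.9 on the FBB1.5 arrays, 85.8 and 91.2 on those of FBB1.7, 90.2 and 102 on those of FBB1.10 and 77.2 and 87.3 on those of FBB1.11, against 66.2 and 83.4 in the parental line. FBB1.5 had the lowest mean and FBB1.10 the highest, and the F test between subclones gave an adjusted p of 0.0675. Its partners in the same complex, Nuf2 and Spc25, differed by 0.06 and 0.04 in the mean over subclones, and Cenpa, the centromeric histone, by 0.15 (adjusted p = 0.808, 0.875 and 0.182).

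Among spindle motors and assembly factors, Tpx2, which activates Aurora A and seeds microtubules around chromosomes, had 302 and 306 on the FBB1.5 arrays, 440.1 and 409.8 on those of FBB1.7, 384 and 356 on those of FBB1.10 and 346 and 324 on those of FBB1.11, against 302 and 307 in the parental line. FBB1.7 was highest and FBB1.10 next, both above both parental arrays, while FBB1.5 lay at the parental level. Tpx2 passed in FBB1.7 (0.46 ± 0.10, adjusted p = 0.00847), and this call was lost only without FBB1.7 array 1 (0.41, adjusted p = 0.102) among the 10 single arrays. A fit that took the actin ratio as covariate ended it too (adjusted p = 0.0836). The 3 other tested probe sets of Tpx2 differed in FBB1.7 by 0.22, 0.14 and 0.33, the same side without passing. Kif11, the motor that pushes spindle poles apart, Kif2c, a microtubule depolymerase, and Hmmr, a spindle assembly factor, differed by 0.05, -0.04 and -0.00 in the mean over subclones (adjusted p = 0.842, 0.863 and 0.989).

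In the central spindle, Racgap1, the GTPase-activating subunit of centralspindlin, had 313 and 284 on the FBB1.5 arrays, 346 and 369 on those of FBB1.7, 385 and 349 on those of FBB1.10 and 320.5 and 293 on those of FBB1.11, against 260.0 and 243 in the parental line. All 8 subclone arrays exceeded both parental arrays, and FBB1.10 and FBB1.7 were highest. The mean over subclones was higher by 0.38 ± 0.08 (adjusted p = 0.0257), the highest difference of the 39 members. That call was lost without parental array 2, FBB1.7 array 2 or FBB1.11 array 1 (adjusted p 0.0578 to 0.198). It was also lost without both arrays of FBB1.7 or both of FBB1.10, with the actin ratio as a covariate and without the intensity trend (adjusted p up to 0.179). Racgap1 was higher in FBB1.7 by 0.48 ± 0.11 (adjusted p = 0.0102) and passed in FBB1.10 at 0.52 ± 0.11 (adjusted p = 0.0243). Without the 2 arrays of high actin ratio, the call in the mean and the call in FBB1.10 were lost (0.170 and 0.0804). The FBB1.7 call was lost without parental array 2 or either FBB1.7 array (0.0547 to 0.0950), and the FBB1.10 call without parental array 2 or either FBB1.10 array (0.0795 to 0.198). The second tested probe set of Racgap1 did not share the difference, with 0.05 in the mean over subclones (adjusted p = 0.813) and -0.09 in FBB1.7. Kif23, its motor subunit, differed by 0.04, and Ect2, the exchange factor that Racgap1 recruits, by 0.02. Prc1, which bundles microtubules, differed by -0.04, the motor Kif20a by 0.18 and anillin (Anln), a scaffold of the contractile ring, by -0.03; adjusted p of these 5 lay between 0.417 and 0.934.

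Among the genes of anaphase, Cdc20, the activator of the anaphase-promoting complex that the checkpoint holds back, had 1278 and 1331 on the FBB1.5 arrays, 1318 and 1228 on those of FBB1.7, 1234 and 1365 on those of FBB1.10 and 1379 and 1210.5 on those of FBB1.11, against 1095 and 1039 in the parental line. All 8 subclone arrays exceeded both parental arrays, and the 4 subclones were close to each other. The mean over subclones was higher by 0.27 ± 0.07 (adjusted p = 0.0381), with 0.25 to 0.29 in single subclones, none of which passed (adjusted p 0.0772 to 0.223). The call was lost without any one of parental array 2, FBB1.5 array 2, FBB1.7 array 1, FBB1.7 array 2, FBB1.10 array 2 and FBB1.11 array 1 (0.0578 to 0.249). It was also lost under 8 of 14 other settings, among them those that left out the whole of FBB1.7 or of FBB1.10 (adjusted p up to 0.314). The 2 other tested probe sets of Cdc20 differed by 0.09 and 0.05 without passing. Ube2c, the ubiquitin-conjugating enzyme of that complex, had 1437 and 1448 on the FBB1.5 arrays, 1397 and 1434 on those of FBB1.7, 1343 and 1414 on those of FBB1.10 and 1486 and 1531 on those of FBB1.11, against 1298 and 1344 in the parental line. FBB1.11 was highest, FBB1.10 array 1 lay between the 2 parental arrays, and the difference was 0.12 ± 0.05 (adjusted p = 0.258). Securin (Pttg1), the inhibitor of separase, had 454 and 440.5 on the FBB1.5 arrays, 404 and 489 on those of FBB1.7, 511 and 482 on those of FBB1.10 and 423 and 471 on those of FBB1.11, against 503 and 513 in the parental line. FBB1.10 array 1 overlapped with the parental arrays and all other subclone arrays were below both, by -0.14 ± 0.08 in the mean (adjusted p = 0.388). Separase itself (Espl1) differed by -0.04 (adjusted p = 0.85).

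Top2a, the topoisomerase that untangles sister chromosomes, had 1213 and 1297 on the FBB1.5 arrays, 1479 and 1397 on those of FBB1.7, 1266 and 1312 on those of FBB1.10 and 1288 and 1303 on those of FBB1.11, against 1135 and 1233 in the parental line. Both FBB1.7 arrays exceeded all others, and FBB1.5 array 1 overlapped with the parental arrays. It passed in FBB1.7 (0.28 ± 0.08, adjusted p = 0.0304), and the call was lost without parental array 1, either FBB1.7 array or either FBB1.11 array (0.0508 to 0.224), and under 5 of 10 other settings (adjusted p up to 0.147). Mki67, which coats mitotic chromosomes and is the usual marker of proliferating cells, had 562 and 754 on the FBB1.5 arrays, 1252 and 1019 on those of FBB1.7, 1078 and 1025 on those of FBB1.10 and 911 and 851 on those of FBB1.11, against 828 and 1069 in the parental line. Both FBB1.5 arrays were below every other array, while the parental arrays overlapped with those of FBB1.7, FBB1.10 and FBB1.11. In FBB1.5 the difference was -0.52 ± 0.14 (adjusted p = 0.0702), short of the threshold.

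Set side by side, the 4 subclones shared the same 2 parental arrays. In FBB1.5, limma called 1 of 39 members (2.56%, against 2.02% of all tested probe sets), Cdc25b. In FBB1.7 it called 7 (17.9%, against 10.1%): Plk1, Bub1, Birc5, Tpx2, Racgap1 and Top2a were higher (15.4%, against 4.55%) and Cdc25b was lower (2.56%, against 5.5%). In FBB1.10 it called 2 (5.13%, against 1.8%), Plk1 and Racgap1, both higher (1.08% of all tested probe sets were). In FBB1.11 limma called 0 (against 0.188%), with 8 members at an unadjusted p under 0.05 (20.5%, against 11.8%). The median difference of the members was 0.04 in FBB1.5, against 0.02 over all tested probe sets, and 24 of 39 members were above 0 (54.1% of all tested probe sets were). It was 0.16 in FBB1.7, against 0.00, with 31 above 0 (50.6% of all). It was 0.10 in FBB1.10, against 0.02, with 31 above 0 (53.6%), and 0.02 in FBB1.11, against 0.01, with 22 above 0 (52.3%). Without parental array 1 the medians were -0.02 in FBB1.5 and 0.07 in FBB1.7, with 0.03 in FBB1.10 and -0.09 in FBB1.11. Without parental array 2 they were 0.14 in FBB1.5 and 0.27 in FBB1.7, with 0.21 in FBB1.10 and 0.12 in FBB1.11. Leaving out both arrays of high actin ratio gave counts of 9 for FBB1.7 (7.99% of all tested probe sets), 1 for FBB1.5 (1.41% of all), 1 for FBB1.10 (1.4% of all) and 0 for FBB1.11 (0.626% of all). With single arrays left out, the count ran from 1 to 8 in FBB1.7 and from 0 to 2 in FBB1.10; the lowest count in FBB1.7 came without FBB1.7 array 1 (3.43% of all tested probe sets), and it was 2 without FBB1.7 array 2 (4.27% of all) and 3 without parental array 1 (9.86% of all). The count of 8 came without either FBB1.5 or either FBB1.10 array (8.85% to 10.5% of all). In FBB1.10 it was 0 without parental array 2 or either FBB1.10 array, and 1 without either FBB1.7 array or either FBB1.11 array (0.431% to 1.21% of all over these 7 fits). Of the FBB1.7 calls, a fit without the intensity trend ended those of Plk1, Bub1, Birc5 and Top2a, the actin covariate those of Plk1, Tpx2, Racgap1 and Top2a, and testing with no intensity filter those of Plk1, Birc5 and Top2a. The Cdc25b call in FBB1.7 held under the same 10 settings.

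**Figure D4:**
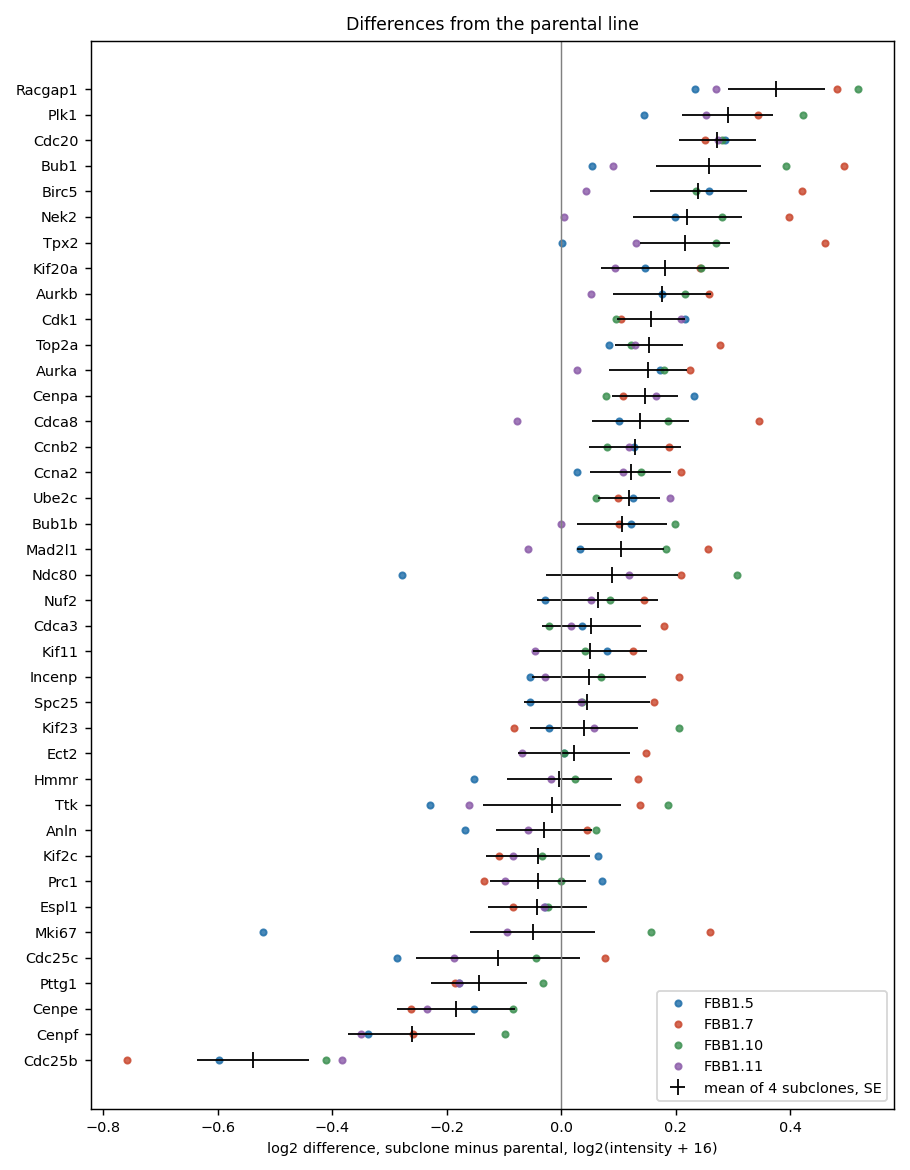
Log2 difference from the parental line for each of the 39 members in the 4 subclones and in the mean over subclones with its standard error, in the fit with lines fixed. Cdc25b is below 0 in all 4 subclones, by 0.38 to 0.76, and Racgap1 is above 0 in all 4, by 0.23 to 0.52.

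**Figure D5:**
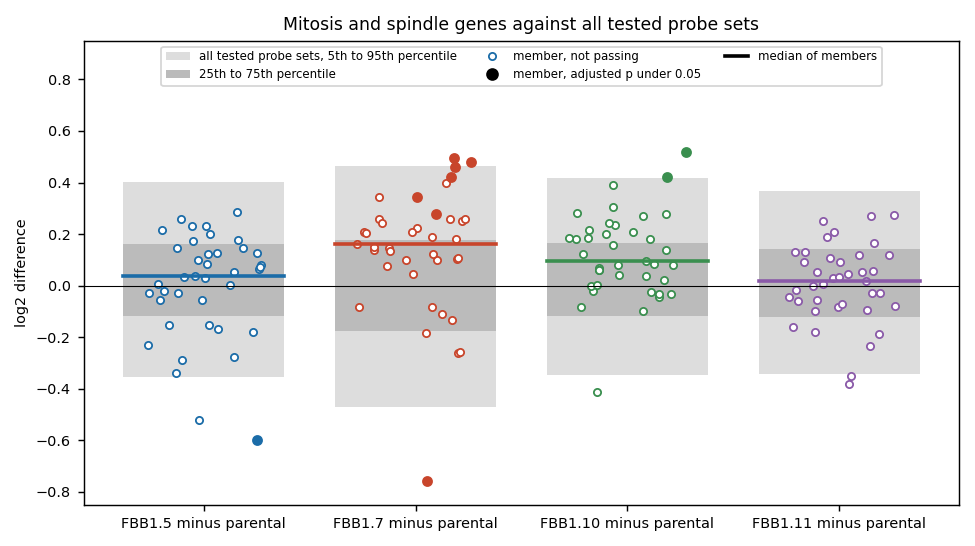
Log2 differences of the 39 members (points) in each comparison with the parental line, over the 5th to 95th and 25th to 75th percentiles of all 25061 tested probe sets (bands). In FBB1.7 the members' median is 0.16 against 0.00 for all probe sets. There 2 of the 39 members lie above the 95th percentile of 0.47 and 1 below the 5th, about the share that lies beyond a 95th or 5th percentile by definition.

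Differences among the clones themselves were tested by a moderated F test over the 4 subclones, which uses the parental arrays only for the pooled spread. It called 3 of 39 members (7.69%, against 7.24% of all tested probe sets): Mki67 (adjusted p = 0.0082), Tpx2 (adjusted p = 0.0366) and Bub1 (adjusted p = 0.0483). The highest and lowest subclone means were 0.78 apart for Mki67, 0.46 for Tpx2 and 0.44 for Bub1 on the log2 scale. For all 3, FBB1.7 was highest, FBB1.10 second and FBB1.5 lowest. The call for Mki67 was lost only without FBB1.5 array 1 among the 10 single arrays (0.57, adjusted p = 0.0890), and also without the intensity trend (adjusted p = 0.109). The calls for Tpx2 and Bub1 were each lost without any one of 7 of the 8 subclone arrays, all but FBB1.10 array 2, with adjusted p of 0.0609 to 0.237 for Tpx2 and 0.0893 to 0.205 for Bub1. Of 10 other settings, 4 ended the call for Tpx2 (adjusted p up to 0.124) and 5 that for Bub1 (adjusted p up to 0.166). The F test count was 0 without FBB1.5 array 1 (3.79% of all tested probe sets) and 5 without either parental array (9.58% and 9.56%). It was 1 without any one of the same 7 subclone arrays other than FBB1.5 array 1 (3.38% to 5.51% of all).

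As a description over the 10 arrays, which share lines and the parental arrays, the members moved together only in part. The median correlation over the 741 pairs of members was 0.259, and 515 pairs were above 0. Bub1 followed the mean of the other members most closely (r = 0.94), and 27 members had r above 0.5. Another 9 were below 0, among them Cdc25b (-0.48), Prc1 (-0.33), Cdk1 (-0.25) and Espl1 (-0.17). No such values were taken for other sets of probe sets, so these are not shown to be particular to mitotic genes. The genes outside the members most like their mean, over the same 10 arrays, were Dcaf17 (0.98), Nup62 (0.97), Mrpl13, Mecr and Tial1 (0.95 each) and 2810004N23Rik (0.95). They were picked for the highest r in a search of all 25061 tested probe sets, so their likeness to the members follows from that choice. Nup62, a protein of the nuclear pore channel, had 402 and 349 on the FBB1.5 arrays, 485 and 456 on those of FBB1.7, 473 and 433 on those of FBB1.10 and 377 and 395 on those of FBB1.11, against 328 and 418 in the parental line. Both arrays of FBB1.7 and of FBB1.10 were above the parental arrays, and parental array 1 was the lowest of all, a pattern for which Nup62 was picked.

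Dimmer probe sets of some members differed more than the brightest one. In all, 76 of 88 member probe sets were tested. Of the 23 members with several tested, 12 had all of them on one side of 0 in the mean over subclones and 11 on both. For Kif11, probe set 1452315_at had 112 and 145 on the FBB1.5 arrays, 206 and 175 on those of FBB1.7, 199 and 162 on those of FBB1.10 and 184 and 135 on those of FBB1.11, against 113 and 88.5 in the parental line. Both FBB1.7 and FBB1.10 arrays were above both parental arrays, FBB1.5 array 1 overlapped, and the mean over subclones was higher by 0.61 (adjusted p = 0.0207). A further Kif11 probe set, 1452314_at, was also higher (0.40, adjusted p = 0.0344), while the brightest, 1435306_a_at, was at 0.05. In FBB1.7, 1452315_at and 1452314_at passed at 0.83 and 0.57 (adjusted p = 0.006 and 0.00812, limma), against 0.12 for the brightest. In FBB1.10, 1452315_at passed at 0.75 (adjusted p = 0.036). For Hmmr, probe set 1450157_a_at had 80.5 and 84.6 on the FBB1.5 arrays, 158 and 142 on those of FBB1.7, 101 and 96.4 on those of FBB1.10 and 98.9 and 91.2 on those of FBB1.11, against 90.4 and 33.2 in the parental line. It passed (0.73, adjusted p = 0.0448), with parental array 2 far below every other array and parental array 1 within the range of the subclones. The brightest Hmmr probe set was at -0.00. In FBB1.7, 1450157_a_at was at 1.20 (adjusted p = 0.00517, limma) and 1427541_x_at at 0.56 (adjusted p = 0.00985). The brightest was at 0.13 there, 1450156_a_at at 0.37 and 1429871_at at -0.05, without passing. The calls listed for FBB1.7 above rest on brightest probe sets and leave out these of Kif11 and Hmmr, and also 1417911_at of Ccna2. Incenp had 1423093_at at 0.59 (adjusted p = 0.048), again with parental array 2 the lowest at 37.3. Counting a member as called when any of its tested probe sets passed gave 6 members in place of 3 (15.4%, against 5.33% of all 12502 genes under the same rule). Of the 23 members with several probe sets tested it called 5 (21.7%, against 8.97% of such genes). Parental array 2 is the array with the highest actin ratio, and its part in the results for Kif11, Hmmr and Incenp was not tested.

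Other genes of the same processes, from lists drawn up with earlier results of these data known, are given by their counts in the mean over subclones, where 1.98% of all tested probe sets were higher and 1.56% lower and the median of all was 0.01. Of 33 further kinetochore and checkpoint genes tested, 2 were higher and 0 lower (6.06% called, median 0.10). Spc24, a subunit of the Ndc80 complex, had 907 and 1053 on the FBB1.5 arrays, 1506 and 1383 on those of FBB1.7, 1032 and 1158 on those of FBB1.10 and 994 and 1128 on those of FBB1.11, against 725 and 849.6 in the parental line. Every subclone array exceeded both parental arrays and FBB1.7 was highest. Its mean over subclones was higher by 0.52 (adjusted p = 0.00366), and FBB1.7 was higher by 0.87 (adjusted p = 0.000164). Zw10, which brings dynein to kinetochores, had 252 and 291 on the FBB1.5 arrays, 380.1 and 359.7 on those of FBB1.7, 337 and 304 on those of FBB1.10 and 267 and 239 on those of FBB1.11, against 212 and 235 in the parental line; all 8 subclone arrays exceeded both parental arrays, by 0.40 in the mean (adjusted p = 0.0258). Of 37 further spindle and cytokinesis genes, 1 was higher and 1 lower (5.41% called, median 0.05). Aspm, a spindle pole protein, had 396 and 409 on the FBB1.5 arrays, 421 and 312 on those of FBB1.7, 377 and 423 on those of FBB1.10 and 475 and 408 on those of FBB1.11, against 527 and 549.9 in the parental line, below both parental arrays on all 8 subclone arrays (-0.41, adjusted p = 0.037). The mitotic kinase Pbk was higher (0.30, adjusted p = 0.0412) and was highest in FBB1.5, with 471 and 486, against 306 and 314 in the parental line. FBB1.5 also had the augmin subunit Haus4 higher (0.59, adjusted p = 0.00497), and Pbk and Haus4 both lie on chromosome 14, which holds 0 of the members.

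Of 18 genes of the anaphase-promoting complex (median 0.02), 1 was higher (5.56%), Ube2s, which extends its ubiquitin chains (0.34, adjusted p = 0.0267). Of 18 cohesin and condensin genes 0 passed in that comparison, while in FBB1.7 the condensin subunit Smc4 was higher (0.42, adjusted p = 0.0228) and in FBB1.5 the cohesin loader Nipbl was lower (-0.62, adjusted p = 0.0181). Of 11 MuvB, FOXM1 and MYBL2 regulators 0 passed in any comparison; Foxm1 was at 0.14 and Mybl2 at 0.22 (adjusted p = 0.527 and 0.275, limma). Of 7 genes of Cdk1-inhibiting kinases and CKS proteins, 2 were higher (28.6%, median 0.11): Cks1b (0.24, adjusted p = 0.0188) and Cks2 (0.24, adjusted p = 0.0259), small proteins that bind Cdk1. Wee1, the kinase that opposes Cdc25 phosphatases on Cdk1, had 171 and 205 on the FBB1.5 arrays, 275 and 222 on those of FBB1.7, 269 and 279 on those of FBB1.10 and 248 and 272 on those of FBB1.11, against 341 and 294 in the parental line. It was lower in FBB1.5 (-0.71, adjusted p = 0.0102), and the mean over subclones was at -0.38 (adjusted p = 0.0546). Of 28 replication and S phase genes, 4 were higher and 0 lower (14.3%, median 0.17): Pcna, Mcm5, Rrm1 and Uhrf1. In FBB1.7, 10 of the 28 were higher (35.7%, against 4.55% of all tested probe sets), with a median of 0.28, against 0.00.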

How the data were processed

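Total RNA of the 5 lines was hybridised to Affymetrix mouse arrays, 2 per line. Per the labels' protocols, oligo-dT primed cDNA served as template for biotinylated cRNA, which was stained with phycoerythrin on streptavidin. The values are the intensities that the authors deposited, linear and all above 0; summarisation, background correction and scaling are not given in the sources used here. The labels' titles gave each array its line, and the number of arrays limits the precision.

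The table has 45101 probe sets, of which 64 control probe sets were left out, and the platform annotation gave 34958 of them 1 symbol, 932 several and 9211 none. Values were taken as log2(intensity + 16) with no further normalization. Probe sets above the table median of 30.52 on at least 2 arrays were tested, 25061 in all. Tests used limma 3.58.1 (eBayes, trend on intensity), with p-values adjusted over all 25061 by Benjamini-Hochberg and a threshold of 0.05, in R 4.3.3 with statmod 1.5.0. The 8 tagged arrays were compared with the parental ones in a fit that took the line as block (duplicateCorrelation, consensus correlation 0.2109). A fit of 5 line means (residual df 5, prior df 9.92) gave the mean of the subclones, each subclone and the F test between subclones. The code was tested on simulated data. Figures were drawn in Python 3.11.15 with matplotlib 3.10.9.

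The members and gene lists were chosen with earlier results of these data known. Per-array values are given for Cdc20 and Plk1, for members passing in any comparison, for the 4 highest and 4 lowest differences of the tagged mean, and in each role for the smallest F test p; Aurkb, Cdk1, dimmer probe sets and genes outside the members were chosen after their values were seen. Replicate numbers did not pair the arrays: deviations of same-numbered arrays correlated between -0.16 and 0.18 over 10 pairs of lines, with 1 above 0.1. Alternatives covered the pseudocount, filter, scaling, trend, actin ratio, replicate block, single arrays and single subclones. Promoter sequences are from RefSeq (GRCm38.p6), and no genome or protein sequence was used here.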

Additional observations from a re-analysis of the deposited data

Results flagged for a closer look

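A moderated F test (limma) found 3 members to differ between subclones that carry the same construct. Mki67 had an adjusted p of 0.0082, with 562 and 754 on the FBB1.5 arrays, 1252 and 1019 on those of FBB1.7, 1078 and 1025 on those of FBB1.10 and 911 and 851 on those of FBB1.11. Tpx2 had an adjusted p of 0.0366, with 302 and 306 on the FBB1.5 arrays, 440.1 and 409.8 on those of FBB1.7, 384 and 356 on those of FBB1.10 and 346 and 324 on those of FBB1.11. Bub1 had an adjusted p of 0.0483, with 304 and 289 on the FBB1.5 arrays, 417 and 399 on those of FBB1.7, 409 and 351 on those of FBB1.10 and 299 and 310.2 on those of FBB1.11. FBB1.7 had the highest and FBB1.5 the lowest mean for each. The share of members called, 7.69%, was close to the 7.24% of all tested probe sets.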

How the results depend on the processing

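The number of members called stayed at 0 under every setting run for the tagged cells with the line as a random block and for FBB1.11. Of 452 recomputed values of single genes, 340 kept their direction and side of the threshold, 110 lost their call, 2 gained one and 0 changed sign. With single arrays left out, the number of members called ran from 0 to 0 for the tagged cells with the block, 1 to 3 with lines fixed, 1 to 1 for FBB1.5, 1 to 8 for FBB1.7, 0 to 2 for FBB1.10, 0 to 0 for FBB1.11 and 0 to 5 between subclones. Over the same fits, the share of all tested probe sets called was 1.4% to 5.24% with lines fixed. It was 0.734% to 3.23% for FBB1.5, 3.43% to 10.5% for FBB1.7, 0.431% to 4.76% for FBB1.10 and 3.38% to 9.58% between subclones. In the main fit these shares were 3.54%, 2.02%, 10.1%, 1.8% and 7.24%. Quantile normalization gave 1 in FBB1.10 in place of 2 (1.67% of all tested probe sets). Arrays centred on their medians gave 2 in FBB1.5 in place of 1 (1.7% of all) and 1 in FBB1.10 (1.54%). Between subclones they gave 1 in place of 3 (6.62%). Without the intensity filter the count was 4 in FBB1.7 in place of 7 (3.61% of all). It was 0 in both FBB1.5 and FBB1.10 (0.446% and 0.264%). Without the intensity trend it was 0 with lines fixed in place of 3 (0.0998% of all) and 3 in FBB1.7 (4.74%). It was 0 in FBB1.5 (0.0878%), in FBB1.10 (0.00399%) and between subclones (1.93%). With the actin ratio as a covariate it was 0 with lines fixed (0.79% of all), 3 in FBB1.7 (3.43%) and 0 in FBB1.10 (0.499%). Without FBB1.7 the count with lines fixed was 0 (0.754% of all), and without FBB1.10 it was 1 (2.72%). With any probe set of a member it was 6 (5.33% of all genes under that rule). Leaving out the 2 arrays of high actin ratio, an alternative chosen after seeing the data, gave 1 in FBB1.10. The median difference of the members in FBB1.11, 0.0163, turned to -0.0094 with arrays centred on their medians, -0.0865 without parental array 1 and -0.0359 without FBB1.11 array 2, and that in FBB1.5, 0.0362, to -0.0197 without parental array 1. Without parental array 2 these medians were 0.1203 (FBB1.11) and 0.138 (FBB1.5). With the replicate block the counts stayed at 0, 3, 1, 7, 2, 0 and 3 (tagged with the line block, lines fixed, each subclone by rising number and between subclones), and of the named genes Bub1 lost its call between subclones (adjusted p = 0.0579). The causes of these changes were not tested, and 2 arrays per line limit every comparison.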

Other observations

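Among 37 further spindle and cytokinesis genes, the F test between subclones called 6 (16.2%, against 7.24% of all tested probe sets): Dlgap5, Haus4, Pbk, Kpna2, Stmn1 and Tubg1. FBB1.5 had the highest subclone mean for Dlgap5, Haus4, Pbk and Stmn1. Dlgap5, which stabilises the microtubules of kinetochores, had 204 and 185 on the FBB1.5 arrays, 140.4 and 138 on those of FBB1.7, 140.2 and 129.7 on those of FBB1.10 and 151 and 137 on those of FBB1.11, against 132 and 141 in the parental line; both FBB1.5 arrays were above all others (adjusted p = 0.0442, limma). Haus4 had 591 and 542 on the FBB1.5 arrays, 316 and 308 on those of FBB1.7, 352 and 362 on those of FBB1.10 and 349 and 357 on those of FBB1.11, against 366 and 378 in the parental line, again with FBB1.5 above all other lines (adjusted p = 0.000473). Dlgap5, Haus4 and Pbk lie on chromosome 14. Tubg1, the gamma-tubulin that nucleates spindle microtubules, had 96.3 and 100.2 on the FBB1.5 arrays, 142 and 158 on those of FBB1.7, 126 and 133 on those of FBB1.10 and 119 and 122 on those of FBB1.11, against 104 and 115 in the parental line, with FBB1.7 highest and FBB1.5 below both parental arrays (adjusted p = 0.0461).

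Of 28 replication and S phase genes the same test called 5 (17.9%, against 7.24% of all tested probe sets): Pcna, Mcm2, Mcm5, Rrm1 and Slbp. Mcm5, a subunit of the replicative helicase, had 945 and 1093 on the FBB1.5 arrays, 1470.0 and 1454 on those of FBB1.7, 1085 and 1149 on those of FBB1.10 and 1055 and 1051 on those of FBB1.11, against 802 and 988 in the parental line; FBB1.7 was above all other lines (F test adjusted p = 0.0117). Rrm1, the large subunit of ribonucleotide reductase, had 460.4 and 458 on the FBB1.5 arrays, 695 and 669 on those of FBB1.7, 489 and 542 on those of FBB1.10 and 475 and 558 on those of FBB1.11, against 366 and 458 in the parental line, with FBB1.7 again above all others (adjusted p = 0.0308).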
